A study of Mus musculus with 12 samples.

Results

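Integrin subunits were followed at the RNA level in progenitors of the bone marrow (BM) that give rise to lymphocytes. The set comprised 10 genes, taken by symbol from a table of 32285 genes: the α subunits Itga4, Itga5, Itga6, Itgav, Itgal and Itgam and the β subunits Itgb1, Itgb2, Itgb3 and Itgb7. Each of the 10 had a single row in the table, and all 10 were among the 13367 genes that passed the filter on low counts.

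RNA sequencing was done on Ly6d- CLPs, common lymphoid progenitors sorted from the BM, and on the multipotent progenitors from which they arise, Flk2+ MPPs. Wild-type C57BL6/J mice were used throughout, at 1 month (1MO) or 3 months (3MO) of age, with 3 libraries from independent experiments for each cell type at each age, 12 in all. Cells of both types were negative for lineage markers and positive for Flk2 and CD27. CLPs were then taken as IL-7R+ and Ly6d-, and MPPs as IL-7R-, c-kit+ and Sca-1+. Antibodies to CD11b, the protein product of Itgam, were part of the lineage cocktail, so Itgam is the member whose protein was used in the sort. Libraries were bulk samples, in which fewer cells of a type and less RNA per cell cannot be told apart.

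Integrins are cell-surface receptors made of an α and a β subunit, and the pair decides which ligand is bound. On blood progenitors, α4β1 binds Vcam1 and fibronectin, α5β1 binds fibronectin, α6β1 binds laminins, αLβ2 binds the Icam proteins, and α4β7 binds Madcam1. These contacts are known to hold progenitors in the BM and to let them cross vessel walls on the way to the thymus and other organs.

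The estimated counts totalled 8889083 to 20677785 per library, and 12379 to 15512 genes had a count. Of the genes behind the gates, Il7r averaged 371 and 340 CPM (counts scaled to library size with edgeR's TMM factors) in 1MO and 3MO CLPs against 10.4 and 10.4 in MPPs, and Kit averaged 296 and 242 CPM against 737 and 758. Ly6d, whose protein was selected against in CLPs, averaged 5.32 and 3.30 CPM in 1MO and 3MO CLPs and 0.953 and 0.118 CPM in MPPs, and its low RNA level was called as higher in CLPs over both ages (log2 difference 3.54, edgeR adjusted p = 0.0139). Ptprc, which encodes the pan-leukocyte protein CD45, ranged from 531 to 852 CPM over the 12 libraries. The summed level of 6 stromal markers, most of it Col1a1 and Col1a2 at 1MO, was 203 to 578 CPM in 1MO CLPs and 0 to 8.30 CPM in 3MO CLPs. In MPPs it was 10.8 to 78.3 CPM at 1MO and 5.39 to 13.3 CPM at 3MO, so stromal RNA moved with age in CLPs.

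The promoters of Itga4 and of its β partners Itgb1 and Itgb7 are shown first, since the α subunit differed between the cell types and its partners did not pass the test. Each window is the 250 bases before the RefSeq start site, 5′ to 3′ on the gene's strand, in build GRCm38.p6. Capitals mark matches, on either strand, to GAGGAA, a core bound by ETS factors such as PU.1, or to TGTGGT, a core bound by RUNX factors. The windows lie at chr2:79255176-79255425 (+) for Itga4, chr8:128685404-128685653 (+) for Itgb1 and chr15:102231936-102232185 (-) for Itgb7.
Itga4: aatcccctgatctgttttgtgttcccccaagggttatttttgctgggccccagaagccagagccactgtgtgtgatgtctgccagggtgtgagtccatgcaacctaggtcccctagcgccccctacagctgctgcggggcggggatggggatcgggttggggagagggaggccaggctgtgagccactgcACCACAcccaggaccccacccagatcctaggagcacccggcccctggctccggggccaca
Itgb1: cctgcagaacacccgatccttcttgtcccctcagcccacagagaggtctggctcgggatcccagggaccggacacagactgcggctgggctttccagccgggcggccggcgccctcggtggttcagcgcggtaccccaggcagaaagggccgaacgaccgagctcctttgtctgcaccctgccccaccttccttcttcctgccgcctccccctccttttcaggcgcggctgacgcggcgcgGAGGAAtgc
Itgb7: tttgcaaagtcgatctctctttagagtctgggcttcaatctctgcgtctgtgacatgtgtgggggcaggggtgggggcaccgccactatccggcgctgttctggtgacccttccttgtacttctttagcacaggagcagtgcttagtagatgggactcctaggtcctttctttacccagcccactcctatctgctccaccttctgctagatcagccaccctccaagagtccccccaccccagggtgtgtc
The Itga4 window held 1 match to TGTGGT, on the strand opposite to the gene and starting 60 bases before the start site. The Itgb1 window held 1 match to GAGGAA starting 9 bases before it, and neither sequence occurred in the Itgb7 window. GC content was 64.0%, 68.0% and 56.0%. Among 32851 promoters of the same length, 23.3% held GAGGAA and 14.05% held TGTGGT, and the motifs do not overlap each other here. Of the other members with a RefSeq promoter, Itgav and Itgam each held 2 matches to GAGGAA and Itga5 held 1. No binding was measured, and a match describes letters and not a bound site.

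To compare levels between genes, CPM was divided by the length of each gene's merged exons in kilobases. In CLPs, Itga4 was the most abundant subunit per kilobase, at 107 ± 10.9 CPM per kilobase at 1MO and 104 ± 4.74 at 3MO (SD, n = 3 each). Its level there was higher than that of 98.2% and 98.3% of the 13363 tested genes with a known length. In MPPs, Itgb1, the common β subunit shared by many α chains, came first, at 70.5 ± 4.30 CPM per kilobase at 1MO and 59.6 ± 10.8 at 3MO, ahead of Itga4 at 45.8 ± 10.4 and 45.4 ± 4.52 (SD, n = 3 each). The Itga4 and Itgb1 ranges did not overlap in CLPs at either age or in 1MO MPPs, and they overlapped in 3MO MPPs.

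Itgal, the α chain of the leukocyte integrin αLβ2, was the third subunit in every group, from 31.3 CPM per kilobase in 3MO MPPs to 48.8 in 1MO CLPs. Its range overlapped that of Itgb1 in 3MO CLPs and that of Itga4 in 1MO MPPs. Itgb7 was the fourth in every group, at 19.3 to 24.7 CPM per kilobase, and overlapped the fifth gene in each. Itgb3, the β chain of the vitronectin receptor αvβ3 and of the platelet receptor αIIbβ3, came last in all 4 groups, at 2.31 to 3.74 CPM per kilobase. Its range was apart from the ninth gene's in 1MO CLPs, 1MO MPPs and 3MO MPPs and overlapped it in 3MO CLPs. In 1MO CLPs the Itgb3 range still overlapped those of Itgav and Itga5, which ranked eighth and seventh. Between these ends, Itgb2 fell at 13.7 to 22.5 and Itgam at 9.86 to 15.9 CPM per kilobase, while Itga5, Itgav and Itga6 lay between 4.77 and 16.9. This order rests on merged-exon lengths. With the longest transcript as the length, 18 of the 40 ranks moved: Itga4 was ahead of Itgb1 in 3MO MPPs, Itgal was ahead of Itgb1 in 3MO CLPs, and Itga6 was ahead of Itgb7 in both MPP groups, while Itgb3 stayed last in all 4. The plot of levels per length shows the order by merged exons.

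**Figure D1:**
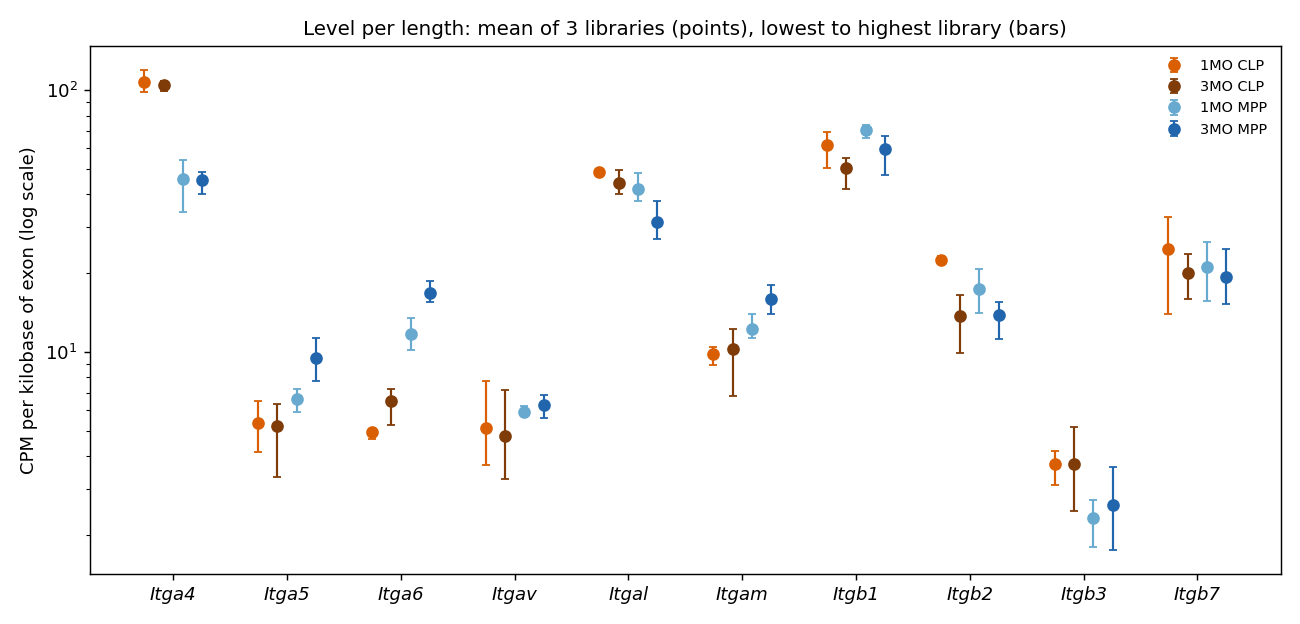
Level of each integrin subunit per kilobase of merged exon (log scale), for 1MO and 3MO CLPs and MPPs. Points are means of 3 libraries and bars run from the lowest to the highest library. Itga4 leads in CLPs at 107 and 104 CPM per kilobase, Itgb1 leads in MPPs (in 3MO MPPs not with the longest transcript as length), and Itgb3 is lowest in every group.

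As a share of the summed level of the 10 subunits per kilobase, Itga4 made up 36.5% ± 4.25 and 39.8% ± 1.76 in 1MO and 3MO CLPs and 19.3% ± 3.502 and 20.7% ± 2.89 in MPPs (SD, n = 3 each). Itgb1 made up 20.97% and 19.1% in CLPs against 30.001% and 27.0% in MPPs. Itga6 held 1.67% and 2.45% in CLPs against 4.98% and 7.72% in MPPs. The α subunits together summed to 181 ± 15.5 and 175 ± 10.04 CPM per kilobase in CLPs and to 124 ± 15.5 and 125 ± 8.93 in MPPs. The β subunits summed to 113 ± 19.4 and 87.9 ± 11.3 in CLPs and to 111 ± 8.50 and 95.3 ± 16.5 in MPPs. Shares and sums depend on the length used for each gene.

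The comparison of CLPs with MPPs asked which subunits differed as multipotent cells and lymphoid-restricted cells were set side by side at the same age. Itga4 was higher and Itga6 was lower in CLPs, by more than 2-fold each, at both ages, and none of the other 8 subunits passed the test at either age. At 1MO, 5.38% of all tested genes were called, 2.57% as higher in CLPs and 2.81% as lower. At 3MO, 6.07% were called, 2.73% as higher and 3.34% as lower. Beside these, 2 of the 10 members were called at each age, 1 in each direction. The median member difference was 0.02 on the log2 scale at 1MO and -0.13 at 3MO, against -0.02 and -0.03 over all tested genes. The ranges of CLPs and MPPs were apart for 5 of the 10 members at each age, against 24.9% of all tested genes at 1MO and 21.8% at 3MO.

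Itga4 encodes α4, which pairs with β1 and β7. Its 1MO CLP libraries held 1673, 1452 and 1379 CPM and its 1MO MPP libraries 756, 687 and 478 CPM. The 3MO CLP libraries held 1391, 1469 and 1522 CPM and the 3MO MPP libraries 679, 663 and 563 CPM. Every CLP library was thus above every MPP library, with no overlap at either age. The log2 difference was 1.23 ± 0.17 at 1MO (SE, adjusted p = 0.000283 by edgeR's quasi-likelihood test, with Benjamini and Hochberg's adjustment over all tested genes), a 2.34-fold difference. At 3MO it was 1.201 ± 0.17 (SE, edgeR adjusted p = 0.000418), or 2.30-fold. The gene spans chr2:79255426-79333123 (+) in GRCm38, and 1124 of its exonic bases overlap Cerkl on the opposite strand. Cerkl held 721 estimated counts over the 12 libraries against 176477 for Itga4.

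Itga6 encodes α6, a laminin-binding chain that pairs with β1 and β4 and is long used as a surface marker of stem cells. It held 41.9, 45.9 and 45.6 CPM in 1MO CLPs and 122, 105 and 92.2 CPM in 1MO MPPs. At 3MO it held 47.5, 65.2 and 62.9 CPM in CLPs and 148, 140 and 168 CPM in MPPs. The lowest MPP library lay above the highest CLP library at both ages. The log2 difference of CLPs from MPPs was -1.25 ± 0.18 at 1MO (SE, edgeR adjusted p = 0.000388), and MPPs held 2.38-fold more. At 3MO the log2 difference was -1.38 ± 0.18 (SE, edgeR adjusted p = 0.000214), with 2.60-fold more in MPPs. Itga6 spans chr2:71745616-71858416 (+).

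**Figure D2:**
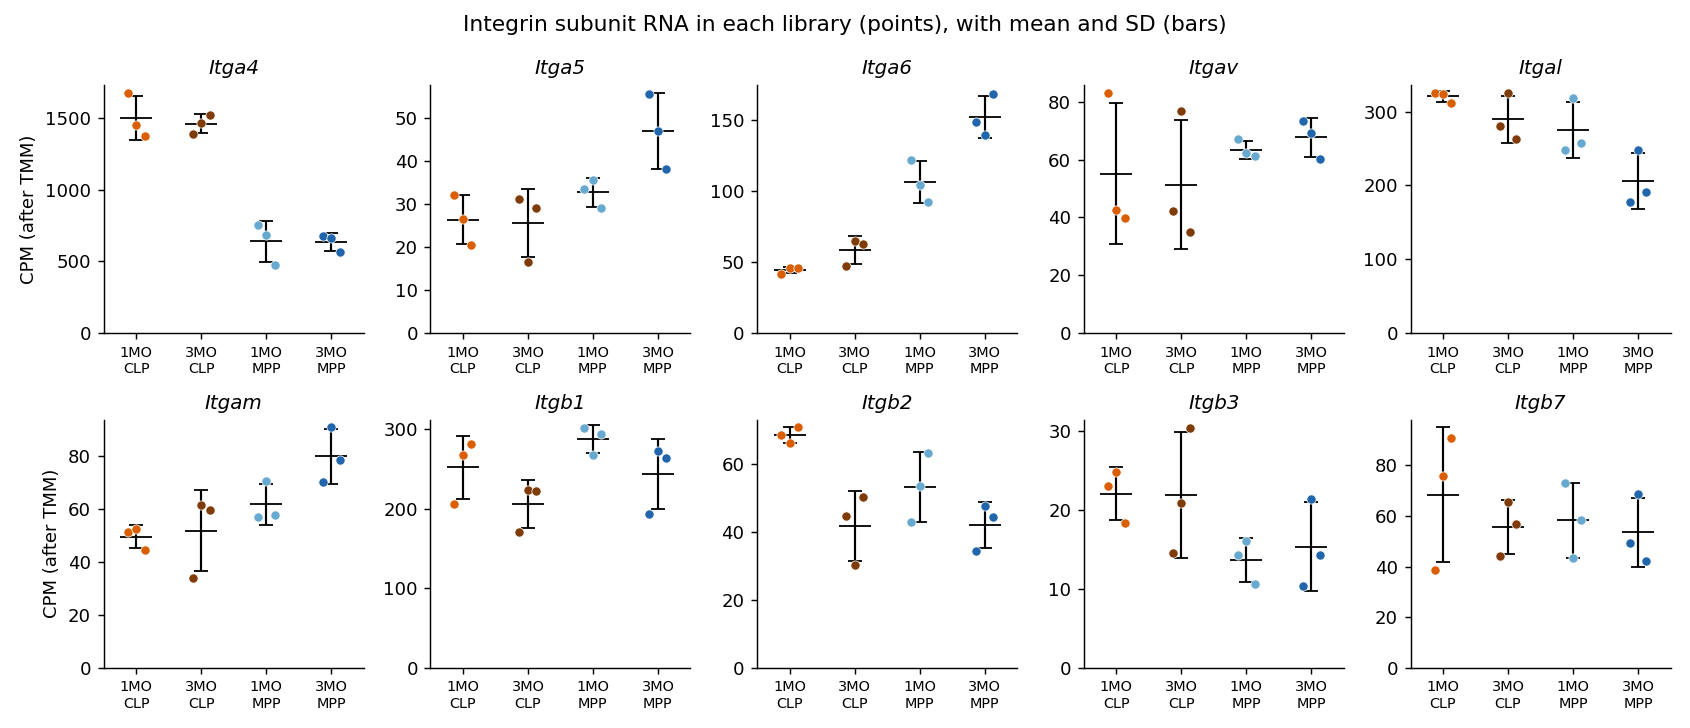
CPM of each integrin subunit in each of the 12 libraries, by group, on linear axes that start at 0 and differ between panels. Points are libraries, and bars give the mean and SD of 3. Itga4 is higher in every CLP library than in any MPP library, and Itga6 is lower in every CLP library.

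For the fibronectin receptor chain Itga5, the libraries of 3MO CLPs held 31.3, 16.5 and 29.1 CPM and those of 3MO MPPs 55.7, 47.0 and 38.1 CPM, with no overlap. The log2 difference was -0.87 with a 95% interval from -1.46 to -0.29 (edgeR adjusted p = 0.0783). At 1MO the groups overlapped, at 20.5 to 32.0 CPM in CLPs and 29.1 to 35.7 CPM in MPPs, and the log2 difference was -0.31 with an interval from -0.90 to 0.27. Itga5 lies at chr15:103344286-103366763 (-).

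Itgal encodes αL, which with β2 forms the main integrin of lymphocytes. In 3MO CLPs it held 281, 325 and 263 CPM and in 3MO MPPs 177, 248 and 191 CPM, again without overlap. The log2 difference was 0.49 with a 95% interval from 0.14 to 0.84 (edgeR adjusted p = 0.0968). At 1MO, CLPs held 312 to 326 CPM and MPPs 248 to 318 CPM, which overlapped, and the log2 difference was 0.22 with an interval from -0.13 to 0.57. The 3MO difference passed the threshold in 3 of 8 other settings, with DESeq2 and with either replicate block. Itgal lies at chr7:127296260-127335138 (+).

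Itgam RNA was present in every library although its protein was selected against, at 34.1 to 61.6 CPM in CLPs and 56.8 to 90.9 CPM in MPPs over both ages. At 3MO, CLPs held 34.1, 61.6 and 59.5 CPM and MPPs 70.1, 90.9 and 78.6 CPM, and the groups did not overlap. The log2 difference was -0.62 with a 95% interval from -1.10 to -0.15 (edgeR adjusted p = 0.125). At 1MO it was -0.32 with an interval from -0.79 to 0.16, and the ranges were again apart. The 13 myeloid markers, with Mpo the most abundant of those named here, summed to 1188 to 1560 CPM in CLPs and 926 to 1164 CPM in MPPs at 1MO, and to 1075 to 1482 CPM and 994 to 1383 CPM at 3MO. At 1MO the median log2 difference of CLPs from MPPs over these 13 was 0.13, with Elane, Ly6c2 and Csf1r called as higher in CLPs and Csf3r as lower. At 3MO it was -0.44, with Csf3r and Prtn3 called as lower in CLPs and Csf1r as higher, and the part of myeloid RNA in the Itgam values was not tested. Itgam lies at chr7:128062640-128118491 (+) and shares 3450 exonic bases with Gm49368 on the same strand, and how reads were divided between them is not known.

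None of the 4 β subunits was called between the cell types. Itgb1, at chr8:128685654-128733200 (+), held 171 to 282 CPM in CLPs and 193 to 301 CPM in MPPs, with log2 differences of -0.19 (95% interval -0.57 to 0.19) at 1MO and -0.24 (-0.62 to 0.14) at 3MO. For Itgb7, which joins α4 in the gut-homing receptor, they were 0.23 (-0.40 to 0.87) and 0.06 (-0.58 to 0.69). For Itgb2, the shared β chain of αL and αM, they were 0.37 (-0.12 to 0.85) and -0.02 (-0.50 to 0.47). Itgb3 held 18.3 to 24.8 CPM in 1MO CLPs and 10.6 to 16.02 CPM in 1MO MPPs without overlap, with a log2 difference of 0.70 (-0.03 to 1.43), and 0.51 (-0.21 to 1.24) at 3MO, where the ranges overlapped. Itgb2 lies at chr10:77530252-77565708 (+), Itgb3 at chr11:104608000-104670476 (+) and Itgb7 at chr15:102215995-102231944 (-).

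Itgav, which pairs with β1 and β3, had the widest relative spread among the members within CLPs, with a coefficient of variation of 44.0% at 1MO and 43.5% at 3MO. Its CLP libraries held 83.1, 42.5 and 39.8 CPM at 1MO and 42.1, 76.7 and 35.0 CPM at 3MO, while the 6 MPP libraries lay between 60.3 and 73.4 CPM. In each CLP group 1 library was above all MPP libraries and the other 2 were below them. The log2 differences were -0.20 (95% interval -0.85 to 0.44) and -0.40 (-1.04 to 0.24). The gene lies at chr2:83724397-83806916 (+), and 634 of its exonic bases overlap the antisense gene Gm13684, which held 0 counts in all 12 libraries.

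The cell-type difference averaged over both ages was added after these values were seen. On that contrast 13.3% of tested genes were called, 5.95% as higher in CLPs and 7.30% as lower, and the calls among the members were again Itga4 at 1.22 ± 0.12 and Itga6 at -1.32 ± 0.13 (log2 difference and SE, edgeR adjusted p = 4.22e-06 and 3.48e-06). Itgal, Itga5 and Itgam lay just outside the threshold. Their log2 differences were 0.36, -0.59 and -0.47, with edgeR adjusted p of 0.0539, 0.0569 and 0.0649. Itgal passed it in 5 of 7 other settings, Itgam in 4 and Itga5 in 3.

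Markers of other cell types differed between CLPs and MPPs too. Over the libraries, 5 dendritic markers summed to 771 to 1009 CPM in CLPs and to 79.0 to 130 CPM in MPPs, with Irf8 making up most of the sum at 848 and 730 CPM in CLPs and 71.2 and 85.6 CPM in MPPs, and Xcr1 at 0 in every library. The platelet gene Pf4 averaged 1.64 to 2.49 CPM in each group, and the platelet gene Gp6 was at 0 in every library. Of the 4 dendritic markers tested, Irf8 and Siglech were called as higher in CLPs at both ages and Bst2 and Clec9a were not called at either, and the part of such cells in the Itga4 and Itga6 differences was not tested.

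**Figure D3:**
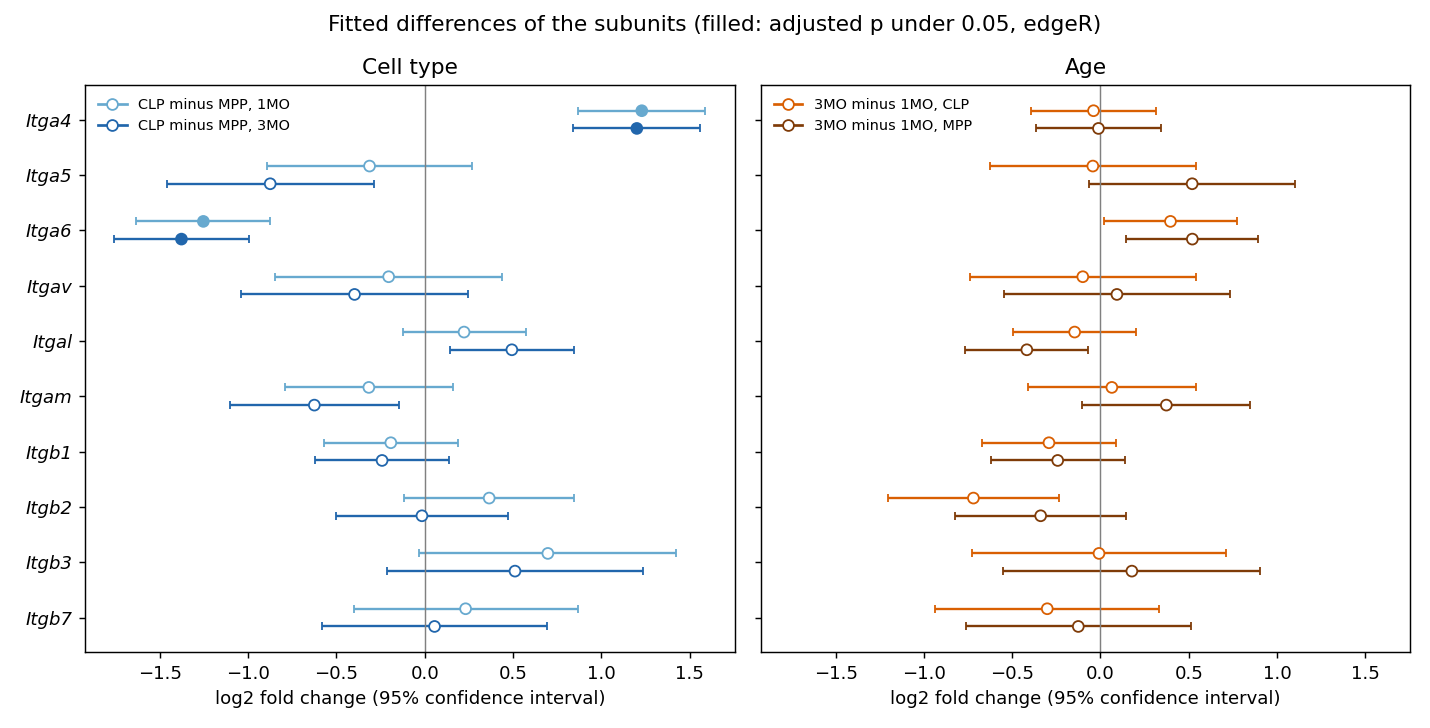
Fitted log2 fold change of each integrin subunit, CLPs minus MPPs at each age (left) and 3MO minus 1MO in each cell type (right). Bars are 95% confidence intervals and filled points have an adjusted p under 0.05 by edgeR. Itga4 and Itga6 are filled at both ages on the left, and no point is filled on the right.

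RNA ratios between subunits were also compared. The ratio of Itga4 to Itgb1 per kilobase was 2.37, 1.58 and 1.43 in 1MO CLPs and 0.733, 0.749 and 0.474 in 1MO MPPs. At 3MO it was 2.37, 1.91 and 2.00 in CLPs and 1.03, 0.710 and 0.621 in MPPs. The ranges were apart at each age, with a mean ratio 2.75-fold and 2.66-fold higher in CLPs. For Itga6 to Itgb1 the mean ratio was 0.0808 in 1MO CLPs and 0.167 in 1MO MPPs, and 0.128 and 0.289 at 3MO, again without overlap.

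Set against each other, Itga4 exceeded Itga6 by 21.9 ± 3.38 and 16.4 ± 2.26 times per kilobase in 1MO and 3MO CLPs and by 3.87 ± 0.47 and 2.73 ± 0.50 times in MPPs (SD, n = 3 each). This ratio was apart between the cell types at each age and between the ages in each cell type. The first follows from the Itga4 and Itga6 ranges already given and is not a further result. The second uses the same Itga6 values, which were apart between the ages, and Itga4 values, which overlapped. Each of these comparisons of ratios gave p = 0.1 in a two-sided exact permutation test, which is the smallest that 3 against 3 libraries allow, so none could pass the threshold. The fold difference of a ratio between groups does not depend on the gene lengths, whereas the ratio itself does.

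**Figure D4:**
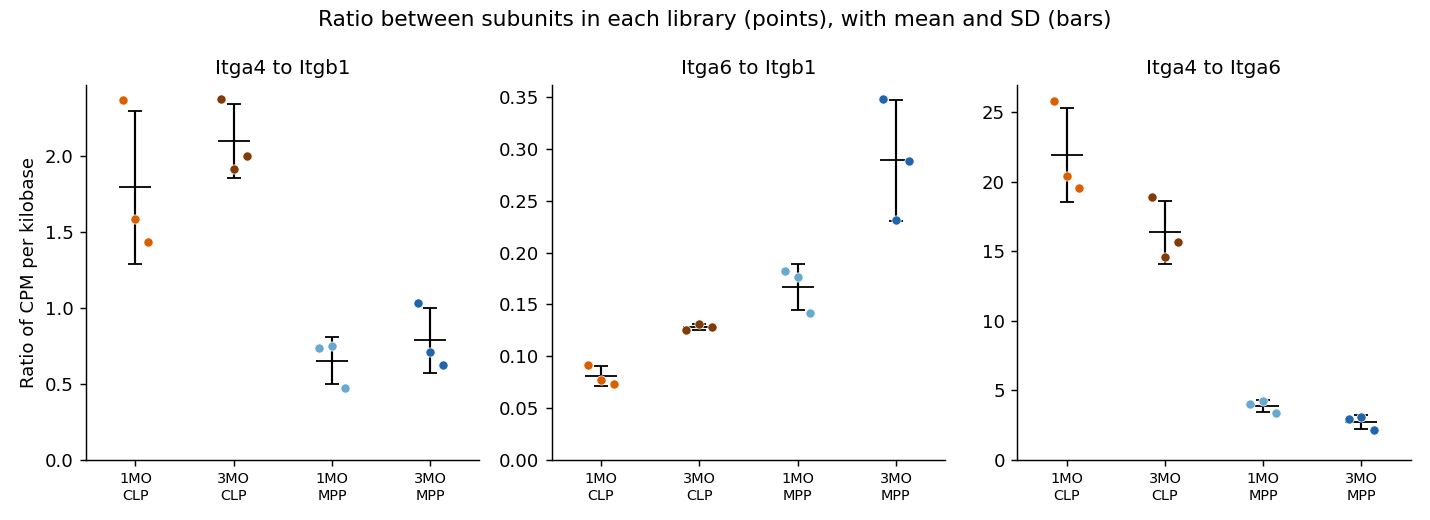
Ratio of Itga4 to Itgb1, Itga6 to Itgb1 and Itga4 to Itga6 in each library, from CPM per kilobase of exon, on linear axes that start at 0. Points are libraries, and bars give the mean and SD of 3. Itga4 to Itgb1 and Itga4 to Itga6 are higher in every CLP library than in any MPP library, and Itga6 to Itgb1 is lower.

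The comparison of 3MO with 1MO asked whether the subunits changed in the progenitors between 1 and 3 months of age, the interval of interest to the study. None of the 10 subunits passed the test in either cell type. With edgeR, 0.0748% of all tested genes were called with age in CLPs (10 genes) and 0.0224% in MPPs (3 genes). At an unadjusted p under 0.05, 2 of the 10 members and 5.90% of all genes (789) passed in CLPs. In MPPs, 2 of the 10 members and 3.48% of all genes (465) passed. DESeq2's Wald test also called 0 members with age. In CLPs, 8 of the 10 fitted differences were below 0, with a median of -0.07 on the log2 scale against -0.01 over all genes. Those of Itga4, Itga5, Itgav and Itgb3 lay between -0.10 and -0.008, and each turned positive with some library left out. Those of Itgal, Itgb1, Itgb2 and Itgb7 stayed below 0. The members share the same libraries, so their signs are not separate observations. In MPPs, 5 of the 10 differences were below 0 and the median was 0.04 against -0.01.

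Itgb2 had the lowest unadjusted p among the members in CLPs. Its CLP libraries held 68.6, 66.2 and 71.1 CPM at 1MO and 44.7, 30.3 and 50.2 CPM at 3MO, with every 3MO library below every 1MO library. The log2 difference of 3MO from 1MO was -0.72 with a 95% interval from -1.21 to -0.23 (edgeR, unadjusted p = 0.00643, adjusted p = 0.637). In MPPs, its libraries held 42.8, 53.6 and 63.4 CPM at 1MO and 34.4, 47.6 and 44.4 CPM at 3MO, which overlapped, with a log2 difference of -0.34 (-0.82 to 0.15). The summed stromal markers were lower at 3MO in the same CLP libraries, at 0 to 8.30 CPM against 203 to 578 CPM at 1MO, and their part in the Itgb2 values was not tested.

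Itga6 was higher at 3MO in both cell types in every library, without overlap between the ages, but did not pass the test. The values already given amount to a log2 difference of 0.40 in CLPs with a 95% interval from 0.02 to 0.77 (edgeR, unadjusted p = 0.0402, adjusted p = 0.836). In MPPs it was 0.52 with an interval from 0.15 to 0.89 (edgeR, unadjusted p = 0.00949, adjusted p = 1). The ages did not overlap for 2 of the 10 members in each cell type, against 10.6% of all tested genes in CLPs and 8.57% in MPPs. In MPPs the other was Itga5, at 29.1 to 35.7 CPM at 1MO and 38.1 to 55.7 CPM at 3MO. The log2 difference of Itga5 was 0.52 (-0.06 to 1.10).

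For Itgal in MPPs the log2 difference with age was -0.42, with a 95% interval from -0.77 to -0.07 (edgeR, unadjusted p = 0.0223, adjusted p = 1), and the ages overlapped. Itga4 was nearly level with age. Its log2 difference was -0.04 in CLPs and -0.01 in MPPs, with 95% intervals from -0.39 to 0.31 and from -0.37 to 0.34. For Itgb1 the differences were -0.29 (-0.67 to 0.09) and -0.24 (-0.62 to 0.14), and for Itgam 0.06 (-0.41 to 0.54) and 0.37 (-0.10 to 0.85). Itgav, Itgb3 and Itgb7 had differences between -0.30 and 0.18, each with an interval that included 0 and reached beyond 0.5 in 1 direction or both.

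When the age difference was averaged over both cell types, a contrast added after the values were seen, 0.127% of tested genes were called (17 genes), 0.0748% as higher at 3MO and 0.0524% as lower. The members furthest from 0 were Itgb2 at -0.53 (95% interval -0.87 to -0.19, edgeR adjusted p = 0.442) and Itga6 at 0.46 (0.19 to 0.72, edgeR adjusted p = 0.326). None of the 10 was called, and 3 of them had an unadjusted p under 0.05 against 5.97% of all genes (798). CLP and MPP libraries of an age may come from the same mice, which the labels do not state.

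Whether the age difference itself differed between CLPs and MPPs was tested as an interaction. Of all tested genes 0% were called by edgeR, and 3.21% (429 genes) and 0 members had an unadjusted p under 0.05. DESeq2's Wald test called 6 genes and 0 members. The lowest p among the members was that of Itga5, with an interaction of -0.56 on the log2 scale (95% interval -1.39 to 0.26, edgeR, unadjusted p = 0.167). For Itgb2 the interaction was -0.38 (-1.07 to 0.30) and for Itga6 -0.12 (-0.65 to 0.41). A difference between CLPs and MPPs in the age change was thus not shown for any member.

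Partner subunits did not rise and fall together in a uniform way across the 12 libraries, which share their depth scaling and fall into 4 groups. Pearson's r of log2 CPM was -0.47 between Itga4 and Itgb1, 0.14 between Itga4 and Itgb7, 0.46 between Itgal and Itgb2, -0.31 between Itgam and Itgb2, and 0.31 between Itga6 and Itgb1. Among all tested genes, the patterns most like that of Itga4 were those of Drc7 (r = 0.987) and Hdac9 (r = 0.982), and those most like Itga6 were Muc13 (r = 0.977) and Fgl2 (r = 0.971), each over the 12 libraries. Other nearest genes were Cmtm6 and Mrps34 for Itgb1 (r = 0.960 and 0.941), Atp13a2 and Msl2 for Itgal (0.949 and 0.920), Il17rc and Gm38910 for Itga5 (0.937 and 0.936), and Gabre and Mcf2l for Itgav (0.934 and 0.913). For Itgb3 they were Cltc and Gm27252 (0.919 and 0.893), for Itgam Ccdc30 and Enpp4 (0.916 and 0.913), for Itgb2 Tsn and Gm49463 (0.906 and 0.905), and for Itgb7 Cggbp1 and Ubr7 (0.877 and 0.854). These nearest-gene values were picked as the highest over all tested genes, so they are high by selection. Co-expression was not tested.

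Of the other 16 integrin subunits, 11 passed the filter. Itgax, the α chain CD11c of dendritic cells, was higher in CLPs, at 49.3 ± 8.27 against 9.57 ± 2.31 CPM at 1MO and 40.2 ± 1.36 against 9.05 ± 4.49 CPM at 3MO (SD, n = 3 each, edgeR adjusted p = 0.000373 and 0.000948). Itgb5, a partner of αv, was lower in CLPs, at 8.27 ± 4.53 against 37.9 ± 4.68 CPM at 1MO and 15.6 ± 4.89 against 54.3 ± 3.58 CPM at 3MO (edgeR adjusted p = 0.00145 and 0.00602). The collagen-binding chain Itga1 was called as higher in CLPs at 1MO (log2 difference 1.75, edgeR adjusted p = 0.0192) and the laminin-binding chain Itga3 as lower at 3MO (-4.19, adjusted p = 0.0360). Calls among the 11 were thus 2 higher and 1 lower in CLPs at 1MO, and 1 higher and 2 lower at 3MO. Of all tested genes, 5.38% and 6.07% were called in either direction. None of the 11 was called with age in either cell type or in the interaction.

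Of the genes that switch integrins on from inside the cell, such as talin, kindlin and their adaptors, 18 of 21 passed the filter. Among these 18, Cyth1, a regulator of β2 integrins, was called as higher in CLPs at 1MO (log2 difference 0.86, edgeR adjusted p = 0.0165) and Apbb1ip, which encodes the Rap1 effector RIAM, at 3MO (0.60, adjusted p = 0.0325). Of 19 tested signaling enzymes and scaffolds that act after ligand binding, the Src-family kinase Fgr was called as higher in CLPs at 1MO (2.51, edgeR adjusted p = 0.0289) and the focal adhesion kinase relative Ptk2b as lower at 3MO (-0.56, adjusted p = 0.0282). Each of these 2 lists thus held 1 called gene at each age, beside 5.38% of all tested genes at 1MO and 6.07% at 3MO. None of 9 tested inhibitors of integrins was called in any of the 7 contrasts.

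Among 12 membrane proteins that associate with integrins, 2 were higher and 1 lower in CLPs at 1MO, and 1 was higher and 3 were lower at 3MO, beside 5.38% and 6.07% of all tested genes called in either direction. The median log2 difference over the 12 was -0.33 at 1MO and -0.45 at 3MO. Cd47 was higher at both ages, with log2 differences of 0.50 and 0.51 (edgeR adjusted p = 0.0492 and 0.0412). The tetraspanin Cd63 was lower at both, by -1.95 and -1.59 (adjusted p = 0.00293 and 0.0124). The tetraspanins Cd53 at 1MO (0.64, adjusted p = 0.0382), Cd9 at 3MO (-1.94, adjusted p = 0.00618) and Tspan32 at 3MO (-1.16, adjusted p = 0.0148) were the others.

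Of 24 ligands and counter-receptors, 16 passed the filter. Of these, 1 was called at 1MO and 3 at 3MO, all as lower in CLPs, beside 5.38% and 6.07% of all tested genes. Over both ages, 3 were called as lower and 1 as higher (Icam2, 0.66, edgeR adjusted p = 0.0410), beside 13.3% of all tested genes. F11r, a junctional ligand of αLβ2, had log2 differences of -2.11 at 1MO and -4.06 at 3MO (edgeR adjusted p = 0.0167 and 0.000259). The basement membrane genes Col4a1 (-3.69, edgeR adjusted p = 0.0174) and Lamb2 (-3.27, adjusted p = 0.0283) were called at 3MO. Of 13 tested genes for integrin folding and traffic, 2 were called at 1MO and 1 at 3MO. The glycosyltransferase Mgat5 was higher in CLPs at both ages (0.71 and 0.70, edgeR adjusted p = 0.0225 and 0.0240). The chaperone Hsp90b1 was higher at 1MO (0.63, adjusted p = 0.0485). With age, none of the genes in these lists was called in either cell type. In the contrast averaged over both cell types, the secreted ligand Thbs1 was called as higher at 3MO (3.26, edgeR adjusted p = 0.0375).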

How the data were processed

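RNA was sequenced from 3 libraries each of 1MO and 3MO Ly6d- CLPs and Flk2+ MPPs. The authors ran an nf-core pipeline with STAR for alignment and Salmon for quantification (the submitters' processing notes also name FastQC, Trim Galore, UMI-tools and DESeq2, and build mm10). The authors deposited a single table of genes by estimated counts, in which transcript length was scaled for and depth was not. Whether counting used strand is not given in the sources used here. The 12 value columns each carried the name of a sample, with 0 others.

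The expected counts were rounded and tested with edgeR 4.0.16 in R 4.3.3 (limma 3.58.1) in a fit of 4 group means over 12 libraries, with filterByExpr, TMM, the quasi-likelihood test and Benjamini-Hochberg adjustment over 13367 genes, at an adjusted p under 0.05. There were 5 planned contrasts (age in CLPs and in MPPs, CLP minus MPP at 1MO and at 3MO, and their interaction) and 2 averaged contrasts added after the values were seen. CPM uses TMM-scaled totals, and correlations use log2 CPM with a prior count of 2. Lengths and coordinates are from GENCODE M21 on GRCm38, where 32235 of 32285 identifiers matched, and promoters from RefSeq on GRCm38.p6, which held 6 of the 10 members. Promoter matches were searched within the 250 bases before the start site.

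The members, the gene lists (written from general knowledge) and the tests were chosen with earlier results of these data known. Genes named are the 10 members, other integrins and at most 4 list genes per comparison if called, and the 2 genes most like each member. Marker genes of the gates and of other cell types, and genes that overlap a member, are named beside these whether called or not, some of them chosen after their values were seen. Libraries of a group differed by more than sampling noise, with a chi-square per degree of freedom of 17.2 to 83.9. Nothing in the labels says that equal replicate numbers share an animal, and p-values measure the spread between these libraries. A test on simulated data of 13028 genes with 200 changed 3-fold returned 55.5% of them for age in CLPs and 55% for cell type at 1MO, with 6 and 4 false calls. Alternatives were DESeq2 1.42.0 (size factors and Wald test), other filters on low counts, only the 6 libraries compared, replicate blocks, thinning to the smallest total, the longest transcript as length, and each library left out in turn.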

Additional observations from a re-analysis of the deposited data

How the results depend on the processing

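Itga4 and Itga6 stayed past the threshold in the cell-type comparison at both ages under all 8 other settings and with each of the 12 libraries left out. With a library left out, the Itga4 log2 difference ranged from 1.06 to 1.36 at 1MO and from 1.12 to 1.25 at 3MO, and that of Itga6 from -1.35 to -1.15 and from -1.46 to -1.24. Subunits called at 3MO rose from 2 to 4 with DESeq2's Wald test (Itga5, adjusted p = 0.0338, and Itgal, adjusted p = 0.0372) and to 3 with a replicate block (Itgal, adjusted p = 0.0293) or a block by age and number (Itgal, adjusted p = 0.0491), and Itgal passed without 3MO MPP replicate 2 (adjusted p = 0.0471). For cell type over both ages they rose from 2 to 5 with the Wald test, the replicate block and the block by age and number. Deviations of same-numbered libraries correlated from -0.03 to 0.21, which cannot decide whether equal numbers share an experiment. The main fit used no block because the methods and labels state no pairs. With the replicate block, 915 genes were called for cell type at 1MO and 1007 at 3MO. No member was called with age or in the interaction under any setting. For Itga6 over both cell types, the lowest adjusted p among other settings was 0.0548.

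The count of all genes called depended on the setting, and the causes were not tested. It was 10 for age in CLPs, against 46 with no filter, 4 with at least 10 counts in every library, 57 with the Wald test, 4 with only 6 libraries and 6 to 10 with a library left out. For age in MPPs it was 3, against 26, 1 and 32 with the first 3 of these settings and 3 to 5 with a library left out, and for age over both cell types 17, against 78 with no filter and 91 with the Wald test. For cell type it was 719 at 1MO, against 1175 with the Wald test and 460 to 887 with a library left out, and 812 at 3MO, against 1371 and, with only 6 libraries, 435. For the interaction it was 0, against 6 with no filter, 6 with the Wald test and 0 to 1 with a library left out.

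No called difference of a member turned its sign under any setting. With DESeq2's size factors, at least 10 counts, the Wald test, the replicate block and thinning, Itga4 with age in MPPs came to 0.000899, 0.00353, 0.000956, 0.000554 and 0.00117. Itgb3 with age in CLPs came to 0.000163 with the size factors and 0.000370 with the Wald test, and Itgam with age in CLPs to -0.0239 when thinned. Itgav with age over both cell types came to 0.00691 (size factors), 0.00692 (at least 10 counts), 0.00620 (Wald) and 0.0211 (thinned).

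Leaving out a library gave log2 ranges that crossed 0 for these members. For age in CLPs they were -0.0980 to 0.0443 (Itga4), -0.22 to 0.20 (Itga5), -0.0804 to 0.28 (Itgam), -0.51 to 0.32 (Itgav) and -0.32 to 0.21 (Itgb3). For age in MPPs they were -0.18 to 0.12 (Itga4), -0.14 to 0.39 (Itgb3) and -0.35 to 0.0671 (Itgb7). For age over both cell types they were -0.11 to 0.0415 (Itga4), -0.21 to 0.20 (Itgav) and -0.0744 to 0.19 (Itgb3). For cell type they were -0.0234 to 0.51 (Itgb7) at 1MO, and -0.17 to 0.17 (Itgb2) and -0.0880 to 0.28 (Itgb7) at 3MO. For the interaction they were -0.16 to 0.14 (Itga4), -0.61 to 0.23 (Itgav), -0.19 to 0.0557 (Itgb1), -0.50 to 0.13 (Itgb3) and -0.46 to 0.0786 (Itgb7).

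With the longest transcript in place of merged exons, 18 of 40 ranks by level per kilobase moved, with Itga4 first in 3MO MPPs, Itgal second to Itga4 in 3MO CLPs, and Itga6 in place of Itgb7 behind Itgal in both MPP groups. Depth was 8889083 to 20677785 counts per library, with 3 libraries a group, and the 95% intervals printed with most differences that were not called give the size they leave possible.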
